A study of Homo sapiens with 8 samples.

Results

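Branch sites in introns are recognised by the U2 snRNP, whose RNA pairs with the sequence around the branch point adenosine. The subunit SF3B1 holds this duplex in place, and SF3A2 belongs to the same particle. K700E is a recurrent SF3B1 substitution in myeloid neoplasms and is known for the use of cryptic 3′ splice sites with their own branch points. U2 also associates with sequences away from annotated 3′ splice sites, and such sites are the subject here.

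The 11465 regions described are read clusters whose identifier carries no 3′ splice site (3′ss) mark and which were listed in the SF3A2 K700E table and in none of the 3 other tables. They were chosen by that listing, among 122826 clusters over all tables, and are called K700E-alone non-3′ss clusters. Of these, 837 carry a 5′ splice site (5′ss) mark in their identifier and 10628 carry no mark at all. The libraries came from K562, an erythroleukemia cell line engineered to express 3xFlag-tagged SF3B1, either with K700E or with the wild-type sequence. The read layout text of the same labels names HEK293 as the RNA source, and this conflict was not resolved. Nuclease-treated nuclear extracts were immunoprecipitated with an antibody to SF3A2 or to the Flag tag. The 4 groups were SF3A2 from K700E cells (3 libraries), SF3A2 from wild-type cells (3 libraries), Flag from K700E cells (1 library) and Flag from wild-type cells (1 library). Whether each line is a single clone, and how much untagged SF3B1 it retains, is not stated in the sources used here.

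For each group 1 table lists clusters with branch points at hg19 positions and a rank per branch point. There are no read numbers, so the depth behind any cluster is unknown, and replicate spread cannot be given. Ranges in brackets are 95% intervals, by Wilson's method for shares, Newcombe's for differences of shares and the normal one for means. They cover counting over clusters, which are not independent of their neighbours. The SF3A2 K700E table is the most extensive of the 4, with 116273 clusters, against 86103 for SF3A2 wild type, 73582 for Flag K700E and 69448 for Flag wild type. A site absent from a table may have had too few reads there or no predicted branch point, and these cannot be told apart.

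The K700E-alone non-3′ss clusters were 25.2% of the 45496 non-3′ss clusters of the SF3A2 K700E table. Among the 70777 3′ss clusters of that table, 11472 or 16.2% were listed alone. The share was thus 8.99 percentage points higher without the 3′ss mark (8.51 to 9.47). The listing chose the clusters, so these shares are a description. The non-3′ss clusters closest to meeting the rule were those listed in 1 further table, of which 6190 were also in SF3A2 wild type, 3060 in Flag K700E and 1104 in Flag wild type. Another 16846 non-3′ss clusters were in all 4 tables. In the wild-type direction, 4182 non-3′ss clusters were in the SF3A2 wild-type table alone, 12.4% of the non-3′ss clusters of that table.

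The 5′ss mark divides these clusters. It was present on 7.30% of the K700E-alone non-3′ss clusters (6.84 to 7.79%), against 59.3% of the wild-type-alone non-3′ss clusters (57.8 to 60.8%), a difference of -52.0 percentage points (-53.6 to -50.5). In non-3′ss clusters of all 4 tables the share was 1.04%, and in those of both K700E tables only it was 0.719%. Read by mark, SF3A2 K700E alone listed 837 of the 4166 5′ss clusters of its table (20.1%) and 10628 of its 41330 clusters with no mark (25.7%). SF3A2 wild type alone listed 2481 of the 5851 5′ss clusters of its table (42.4%) and 1701 of its 27750 clusters with no mark (6.13%). Clusters with 5′ss marks were fewer in the Flag tables, with 336 for K700E and 589 for wild type. Since the wild-type-alone clusters are mostly 5′ss clusters, the main comparisons with them are also given by mark. How the marks were assigned is not stated in the sources used here.

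Some K700E-alone non-3′ss clusters lay near sites that all 4 tables listed. On chromosome 1, the cluster at 886488 to 886522 had its branch point at 886499. A 3′ss cluster of all 4 tables, at 886627 to 886660, was 140 nt away between top-ranked branch points. On chromosome 2, the cluster at 3596568 to 3596602 had its branch point at 3596580, and the 3′ss cluster of all 4 tables at 3596730 to 3596766 was 162 nt away. On chromosome 4, the cluster at 4242389 to 4242423 had its branch point at 4242401, 176 nt from the 3′ss cluster at 4242213 to 4242247. In these examples the 3′ss neighbour lay at higher file coordinates on chromosomes 1 and 2 and at lower ones on chromosome 4. The cluster on chromosome 1 carries the 5′ss mark.

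Others had a non-3′ss neighbour or a distant one. The cluster at 8989915 to 8989949 of chromosome 3, with its branch point at 8989927, was 355 nt from a non-3′ss cluster that was listed in every table but Flag wild type. On chromosome 5, the branch point at 309630 lay 1756 nt from a non-3′ss cluster of all 4 tables. The branch point at 679538 on chromosome 6 lay 22263 nt from the nearest cluster listed for wild type. At 1477626 to 1477660 on chromosome 7 the branch point was 1477635, and a non-3′ss cluster of all 4 tables was 372 nt away. All 7 of these clusters span 34 nt, the median, and have a single branch point.

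Most K700E-alone non-3′ss clusters listed a single branch point. The number was 1 in 8487 clusters (74.0%, 73.2 to 74.8%), 2 in 2344, 3 in 579, 4 in 53 and 5 in 2. The mean was 1.32 branch points per cluster (1.31 to 1.33). 3′ss clusters of the same table listed alone had a single branch point in 65.6% of cases (64.7 to 66.5%), and the difference was 8.43 percentage points (7.25 to 9.61). Non-3′ss clusters listed for SF3A2 wild type alone had 1 in 79.2% (78.0 to 80.4%). By mark, a single branch point was listed in 89.0% of the K700E-alone 5′ss clusters and 84.1% of the wild-type-alone ones. With no mark the shares were 72.8% in K700E-alone clusters and 72.1% in wild-type-alone clusters, and the interval of the difference contains 0 (-1.54 to 3.05). Single branch points were rarer the more tables listed a non-3′ss cluster. They made up 68.4% where SF3A2 wild type also listed it, 45.1% where Flag K700E did and 55.9% where Flag wild type did. With 2 further tables the share was 29.9 to 41.3%, and in all 4 tables it was 11.8%. The number of branch points comes from the same table as the listing, so it describes the clusters and supports no difference between genotypes.

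**Figure D1:**
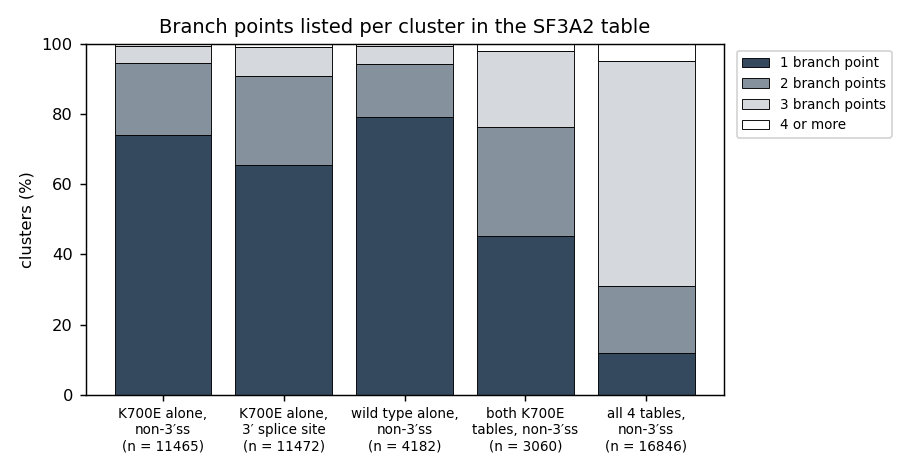
Percent of clusters (vertical axis) with 1, 2, 3 or at least 4 branch points, in the SF3A2 K700E table for 4 kinds of cluster and in the SF3A2 wild-type table for clusters listed there alone. Single branch points make up 74.0% of the K700E-alone non-3′ss clusters and 11.8% of the non-3′ss clusters of all 4 tables.

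Second branch points were described next. Where there was a single top-ranked and a single second-ranked branch point, the second lay within 4 nt of the first in 51.4% of K700E-alone non-3′ss clusters (49.4 to 53.5%, n = 2228). In non-3′ss clusters of all 4 tables this share was 64.3%, a difference of -12.9 percentage points (-15.1 to -10.6). It was 51.6% in 3′ss clusters of SF3A2 K700E alone, and the interval of the difference contains 0 (-2.94 to 2.54). In non-3′ss clusters of both K700E tables only it was 55.7%. A distance of exactly 4 nt was the most frequent in K700E-alone non-3′ss clusters and in non-3′ss clusters of all 4 tables. Wild-type-alone non-3′ss clusters had 61.1% within 4 nt, a difference of -9.67 points (-13.8 to -5.43), and their most frequent distance was 2 nt. The second branch point was on the side of the nearer cluster end in 45.6% of K700E-alone non-3′ss clusters (43.6 to 47.7%). This share was 49.1% in non-3′ss clusters of all 4 tables. It was 45.8% in 3′ss clusters of SF3A2 K700E alone and 45.9% in non-3′ss clusters of both K700E tables only. Top ranks were tied in 18.7% of the K700E-alone non-3′ss clusters with at least 2 branch points (17.3 to 20.1%). The share was 15.7% for 3′ss clusters of SF3A2 K700E alone and 16.2% for wild-type-alone non-3′ss clusters, where the interval of the difference contains 0 (-0.488 to 5.16). It was 8.28% for non-3′ss clusters of both K700E tables only and 1.72% for those of all 4 tables.

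Examples with 3 branch points follow. On chromosome 1, the cluster at 1250821 to 1250863 had branch points at 1250842, 1250837 and 1250839, ranked 1, 2 and 3. The cluster at 3181171 to 3181204 of chromosome 3 had its first at 3181193 and 2 of rank 2, at 3181185 and 3181199, on either side of it. On chromosome 2, the cluster at 3521530 to 3521587 spans 57 nt, with the first branch point at 3521562 and 2 of rank 2 at 3521550 and 3521567.

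The spans varied little. The median was 34 nt, with quartiles of 32 and 38 nt and a range of 15 to 132 nt. Per the labels, inserts were 24 to 55 nt in 1 field and 28 to 70 nt in another. Short clusters under 25 nt were 2.37% of the K700E-alone non-3′ss clusters (2.11 to 2.67%), against 13.7% of non-3′ss clusters of SF3A2 wild type alone and 11.5% of non-3′ss clusters of all 4 tables. The difference from the clusters of all 4 tables was -9.17 percentage points (-9.72 to -8.61). Such short clusters were rarer still among 3′ss clusters of SF3A2 K700E alone, at 0.279% (difference 2.09 points, 1.81 to 2.40). In non-3′ss clusters of both K700E tables only they were 1.73% (difference 0.640 points, 0.0519 to 1.14). Among clusters with no mark, 2.51% of the K700E-alone ones and 33.2% of the wild-type-alone ones were under 25 nt, a difference of -30.7 points (-33.0 to -28.5). Clusters over 45 nt were 5.16% of the K700E-alone non-3′ss clusters, 10.6% of the wild-type-alone ones and 2.37% of those of all 4 tables.

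With no strand in the tables, the cluster end closer to the top-ranked branch point gave each cluster an orientation. In K700E-alone non-3′ss clusters this end was a median of 12 nt from the branch point, with quartiles of 10 and 13 nt. Only 82 of them had the top-ranked branch point, or the mean of tied ones, in the exact middle and no orientation. Which end is the 3′ end is not stated in the sources used here.

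This orientation matched that of the surroundings. Of the 8204 oriented K700E-alone non-3′ss clusters with a 3′ss cluster within 10 kb, 89.9% had the same orientation as the nearest one (89.2 to 90.5%). For 3′ss clusters of SF3A2 K700E alone the value was 90.9%, and for non-3′ss clusters of SF3A2 wild type alone it was 89.4%. Among clusters with no mark it was 89.9% for K700E alone and 85.3% for wild type alone (interval of the difference 2.41 to 7.04 percentage points). For non-3′ss clusters of all 4 tables it was 93.1%, and the difference was -3.23 percentage points (-4.03 to -2.43). The share was 90.5% in those with a single branch point (89.7 to 91.2%), 89.2% with 2 (87.6 to 90.6%) and 85.4% with 3 (81.7 to 88.5%). Orientation also matched between pairs of K700E-alone non-3′ss clusters. When another was within 1 kb, 90.5% of 1216 shared its orientation (88.8 to 92.1%). The same measure gave 90.8% for 3′ss clusters of SF3A2 K700E alone and 90.1% for non-3′ss clusters of both K700E tables only. It gave 97.2% for non-3′ss clusters of all 4 tables, a difference of -6.64 percentage points (-8.48 to -5.01). Wild-type-alone non-3′ss clusters had the lowest value, 77.3% of 436, a difference of 13.2 percentage points (9.16 to 17.7). With no mark on either cluster, the values were 90.9% of 1013 K700E-alone clusters and 64.4% of 188 wild-type-alone clusters, and with a 5′ss mark on both they were 86.2% of 29 K700E-alone and 88.9% of 135 wild-type-alone clusters. No orientation entered the choice of the clusters.

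Within the cluster, the top-ranked branch point of the K700E-alone non-3′ss clusters lay close to the nearer end more often than in widely listed clusters. Among those of 30 to 38 nt with a single top-ranked branch point, it was at most 9 nt from that end in 17.3% (16.5 to 18.2%, n = 7584). The share was 7.84% in non-3′ss clusters of all 4 tables, a difference of 9.47 percentage points (8.50 to 10.5), and 14.0% in non-3′ss clusters of both K700E tables only. 3′ss clusters of SF3A2 K700E alone had 18.4%, and the interval of the difference (-2.30 to 0.100) contains 0.

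Against wild-type-alone non-3′ss clusters the difference depended on span. Their share was 11.8% (10.4 to 13.4%), which is 5.48 percentage points below that of the K700E-alone non-3′ss clusters. Once their spans were weighted as in the K700E-alone non-3′ss clusters it was 15.5% (13.5 to 17.4%), and the difference was 1.86 points (-0.243 to 3.95). By mark and without weighting, the shares were 21.4% of 332 K700E-alone 5′ss clusters against 11.2% of 1215 wild-type-alone ones (10.2 points, 5.70 to 15.2), and 17.1% of 7252 K700E-alone clusters with no mark against 13.1% of 611 wild-type-alone ones (4.03 points, 1.00 to 6.63). Among clusters with a single branch point, also unweighted, the difference was 5.39 points (3.53 to 7.10). In clusters of exactly 34 nt the values were 12.1% of 1109 K700E-alone and 12.3% of 244 wild-type-alone clusters. The difference from clusters of all 4 tables remained after weighting, at 7.39 points (6.35 to 8.43).

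**Figure D2:**
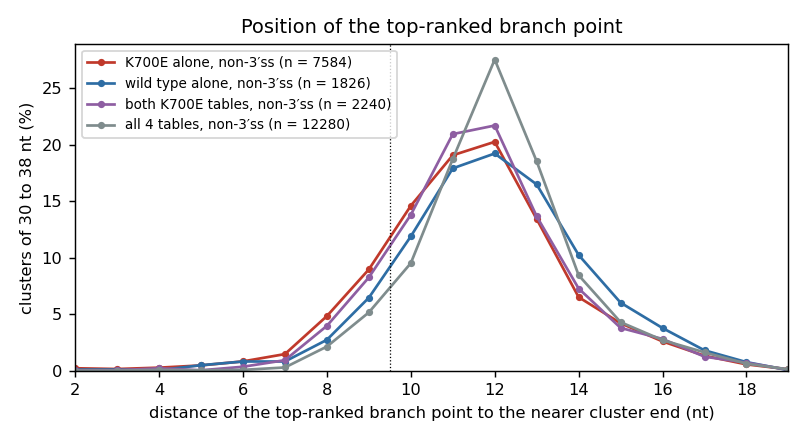
Percent of clusters of 30 to 38 nt with a single top-ranked branch point (vertical axis) by the distance of that branch point to the nearer cluster end in nt (horizontal axis), for 4 kinds of non-3′ss cluster. All peak at 12 nt, and 17.3% of the K700E-alone clusters lie left of the dotted line, at 9 nt or less, against 7.84% of the clusters of all 4 tables.

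The distances to other listed sites were compared next. A 3′ss cluster was within 1 kb of 30.9% of them and within 10 kb of 72.1% (71.3 to 72.9%), with a median distance of 2756 nt. For non-3′ss clusters of all 4 tables the share within 1 kb was 22.6%, a difference of 8.22 percentage points (7.17 to 9.28). Among clusters with no mark this difference was 4.99 points (3.94 to 6.05). The share was 39.5% for 3′ss clusters of SF3A2 K700E alone and 26.8% for non-3′ss clusters of both K700E tables only. With no mark, the interval of the difference from the latter contains 0 (-1.01 to 2.55). For wild-type-alone non-3′ss clusters the share within 1 kb was 55.5%, but this followed the mark. With a 5′ss mark, 78.1% of K700E-alone clusters and 75.3% of wild-type-alone clusters had a 3′ss cluster within 1 kb. With no mark it was 27.2% of K700E-alone clusters and 26.7% of wild-type-alone clusters, and both intervals of the difference contain 0 (-0.518 to 6.03 with the mark, -1.84 to 2.69 without). Within 10 kb the clusters with no mark did differ, with 70.4% for K700E alone and 58.9% for wild type alone, a difference of 11.5 points (9.03 to 14.0). A cluster listed for wild type, in SF3A2 or Flag, was within 10 kb of 83.7% of the K700E-alone non-3′ss clusters (83.0 to 84.4%) and within 100 nt of 4.27%. The share within 10 kb was 83.6% for 3′ss clusters of SF3A2 K700E alone, 80.6% for non-3′ss clusters of both K700E tables only and 86.7% for those of all 4 tables. No other cluster of any table lay within 10 kb of 9.94% of the K700E-alone non-3′ss clusters and 10.6% of the non-3′ss clusters of all 4 tables. Overlap with a cluster of another table occurred in 4 cases.

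The side on which they lay followed the 5′ss mark. As background, a 5′ splice site follows a 3′ splice site across an exon. The side of 5′ss clusters may thus be built into their mark, whose assignment is not stated, so it is a description. Around the nearest 3′ss cluster of all 4 tables with a matching orientation, at 100 to 200 nt, 236 of 250 K700E-alone 5′ss clusters were on its nearer-end side (94.4%, 90.8 to 96.6%). Among K700E-alone clusters with no mark, 46 of 212 were on that side (21.7%, 16.7 to 27.7%), and the others were on the opposite side. Wild-type-alone 5′ss clusters had 641 of 680 on the nearer-end side (94.3%, 92.3 to 95.8%), and the interval of the difference from K700E alone contains 0 (-3.75 to 3.14). For clusters with no mark the shares were 25.9% of 301 in all 4 tables, with an interval of the difference that contains 0 (-11.5 to 3.38), and 3 of 40 in wild type alone, where the difference was 14.2 points with a lower bound of 0.854.

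Without regard to mark, 282 K700E-alone non-3′ss clusters of this zone were on the nearer-end side and 180 were not, or 61.0%, which averages the opposite patterns. Nearer to the 3′ss cluster, at 40 to 100 nt, 24 of 57 K700E-alone 5′ss clusters and 0 of 26 with no mark were on the nearer-end side. Wild-type-alone 5′ss clusters had 116 of 176 there, and the difference, K700E alone minus wild type alone, was -23.8 percentage points (-37.4 to -8.98). The zone of 100 to 200 nt and the split by mark were chosen after the values were seen. Of the examples, the 5′ss cluster on chromosome 1 lay on the nearer-end side of its 3′ss cluster, as did the cluster on chromosome 2, which has no mark. The cluster on chromosome 4, also with no mark, lay on the other side.

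**Figure D3:**
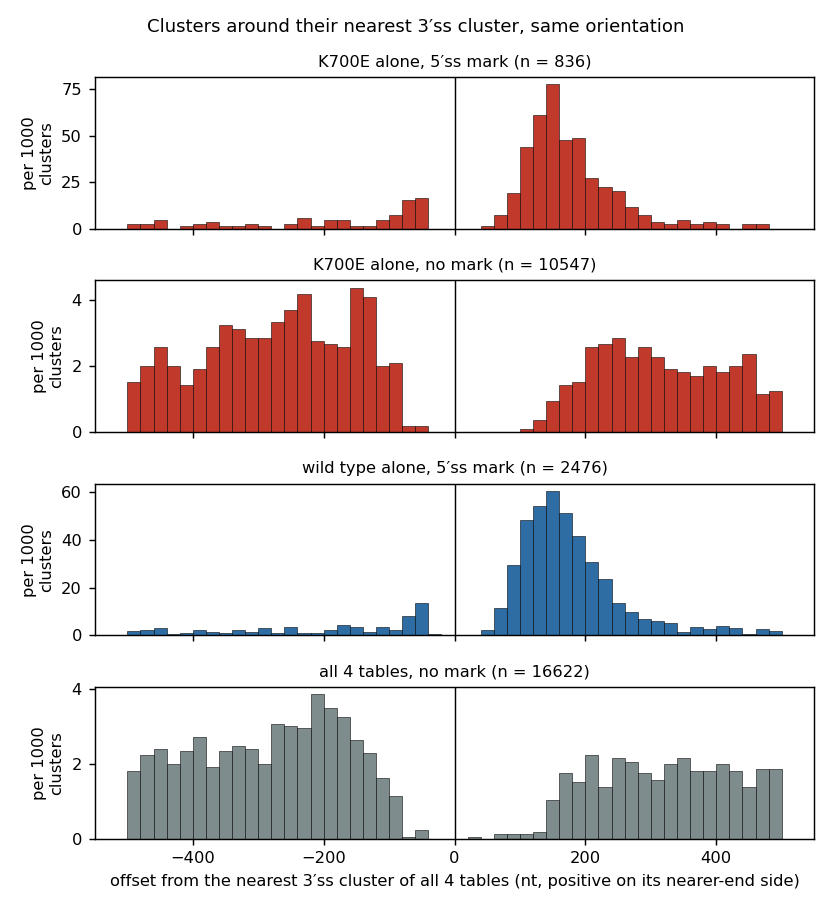
Clusters per 1000 (vertical axes, each with its own scale) by offset in nt from the nearest 3′ss cluster of all 4 tables with a matching orientation, in bins of 20 nt; positive offsets are on its nearer-end side. K700E-alone 5′ss clusters gather at positive offsets, with 94.4% of those at 100 to 200 nt on that side, and K700E-alone clusters with no mark have 21.7% there.

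Spread over the genome, the K700E-alone non-3′ss clusters occupied 5808 of the 12389 intervals of 100 kb that held any cluster. A single one was present in 3003 intervals, and 358 intervals held at least 5, with 2202 of the clusters (19.2%). Intervals with a cluster of all 4 tables contained 10364 of them (90.4%, 89.8 to 90.9%). Intervals with no wild-type-listed cluster contained 622 (5.43%, 5.03 to 5.85%). No such shares are given here for other kinds of cluster, so both are a description.

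The densest interval, on chromosome 17 (26.9 to 27 Mb), held 17 K700E-alone non-3′ss clusters among 89, of which 53 were in all 4 tables. They began with 26902581 to 26902611, which had its branch point at 26902590, and 15 of the 17 had a single branch point and 15 had the main orientation of the interval. None of the 17 carries a 5′ss mark. The next interval was of another kind. On chromosome 12 (40.9 to 41 Mb) there were 15 among 47 clusters, 28 others were in both K700E tables only, and 0 were in a wild-type table. All 15 had the same orientation there, over 37.2 kb, and the first, at 40904547 to 40904581 with its branch point at 40904569, was 253538 nt from the nearest wild-type-listed cluster.

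A count of 13 was reached on chromosome 15 (89.4 to 89.5 Mb), chromosome 16 (88.7 to 88.8 Mb), chromosome 17 (40.6 to 40.7 Mb) and chromosome 21 (34.9 to 35 Mb), where 16, 38, 17 and 34 clusters were in all 4 tables. The 5′ss mark was on 2, 2, 4 and 1 of the 13 in each. In the chromosome 15 interval the first was at 89423854 to 89423889, with branch points at 89423868 and 89423858. The first on chromosome 16 was at 88716306 to 88716339, with its branch point at 88716316, 1776 nt from a 3′ss cluster of all 4 tables. On chromosome 17 it was at 40622221 to 40622261, with its branch point at 40622246, 162 nt from a non-3′ss cluster of all 4 tables, and carries the 5′ss mark. A count of 11 occurred on chromosome 1 (51.8 to 51.9 Mb), chromosome 3 (9.8 to 9.9 Mb), chromosome 4 (79.7 to 79.8 Mb) and chromosome 8 (130.5 to 130.6 Mb), with 11, 28, 15 and 7 clusters of all 4 tables. In all, 6 intervals reached 11, and these 4 come first by chromosome. On chromosome 8 all 26 clusters of the interval had the same orientation. 3′ss clusters of SF3A2 K700E alone numbered between 0 and 8 in each of these 10 intervals. The intervals were ranked by their number of K700E-alone non-3′ss clusters, so these counts are a description and no comparison of kinds.

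**Figure D4:**
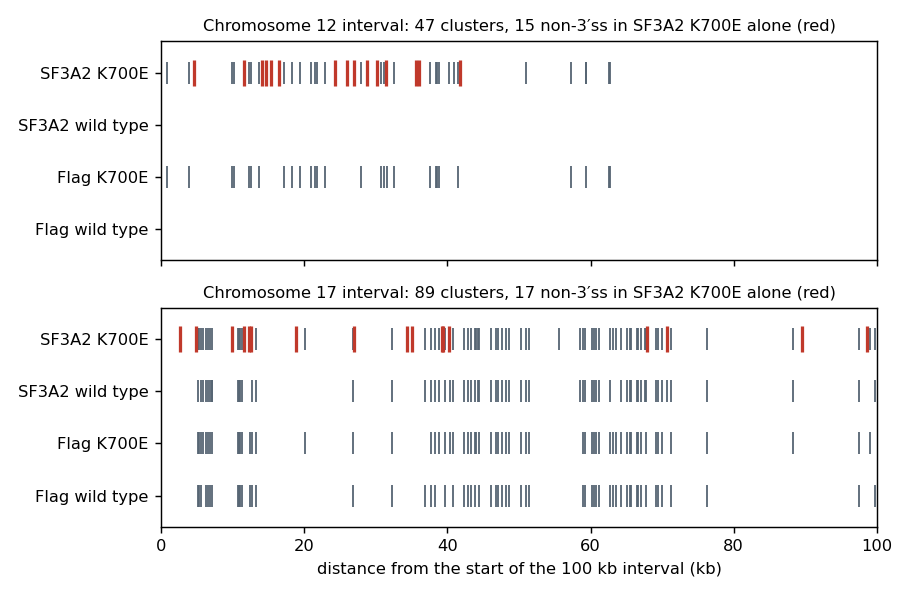
Clusters of the 2 densest 100 kb intervals by distance in kb from the interval start (horizontal axis), with a row for each table and a tick for each cluster listed there; K700E-alone non-3′ss clusters are red. On chromosome 12 the wild-type rows are empty, while on chromosome 17 the red ticks lie among 53 clusters present in all 4 rows.

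Some were consecutive, with no other cluster of any table between them. There were 1229 such runs of 2 or more, with 2713 clusters, and 44 runs of at least 4. In 31 of these 44 every cluster had the same orientation. The longest run had 8 clusters over 686 kb of chromosome 2, of which 6 shared an orientation. A run of 6 in the same orientation lay from 102955246 to 102967975 of chromosome 2, and a run of 5 within 1.85 kb from 99212601 of chromosome 10. These runs were named after their lengths were seen. No count of runs is given here for other kinds of cluster, so they are a description and no trait of these clusters.

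The listing of other clusters nearby was examined next, since it did not enter the rule. Over all tables, 26138 clusters were in 1 Flag table only, and 57.9% of them were in Flag K700E. None of the K700E-alone non-3′ss clusters is among these. Of the K700E-alone non-3′ss clusters with such a cluster within 10 kb, the nearest was in Flag K700E in 62.3% of cases (61.2 to 63.4%, n = 7074). Near non-3′ss clusters of all 4 tables the value was 54.9%, a difference of 7.44 percentage points (5.96 to 8.90). Near non-3′ss clusters of both K700E tables only it was higher, at 69.9%, a difference of -7.64 points (-9.92 to -5.30). Near wild-type-alone non-3′ss clusters it was 45.7%, a difference of 16.6 points (14.4 to 18.8). This difference was present with and without the 5′ss mark. Near 5′ss clusters it was 64.1% for K700E alone and 44.9% for wild type alone (difference 19.1 points, 14.8 to 23.3), and near clusters with no mark it was 62.1% for K700E alone and 47.3% for wild type alone (14.8 points, 11.3 to 18.3). Near 3′ss clusters of SF3A2 K700E alone it was 63.2%, and the interval of the difference contains 0 (-2.51 to 0.625). Counting each neighbour once gave 62.3%, 55.7% and 47.3% for the K700E-alone non-3′ss clusters, the clusters of all 4 tables and the wild-type-alone non-3′ss clusters.

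By interval, the Flag K700E share increased with the number of K700E-alone non-3′ss clusters. It was 53.1% in the 6581 intervals with 0 (52.0 to 54.2%), 56.8% with 1, 60.2% with 2, 61.6% with 3 or 4, 65.5% with 5 to 8 (63.4 to 67.6%) and 76.1% in the 33 intervals with at least 9 (70.9 to 80.6%). Counting only K700E-alone clusters with no mark, it was 53.3% with 0, 57.5% with 1, 64.2% with 5 to 8 and 79.6% with at least 9. Without the chromosome 12 interval the last value over all K700E-alone non-3′ss clusters was 73.6% (68.0 to 78.5%). Counts of 3′ss clusters of SF3A2 K700E alone went with a like increase, with Flag K700E shares of 54.2, 55.4, 58.9, 62.3, 65.0 and 69.6% over the same classes. In intervals with at least 10 clusters, the share was 49.8% with 0 K700E-alone non-3′ss clusters. Intervals with any of them exceeded those with 0 by 7.07 percentage points (5.79 to 8.36), and the share was higher on 22 of 23 chromosomes. The exception was chromosome 20, with 60.1% in intervals with such clusters and 62.1% in those without.

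Counts of wild-type-alone non-3′ss clusters went with the opposite order. The Flag K700E share was 60.9% in intervals with 0 of these, 49.0% with 3 or 4 and 37.3% with 5 to 8 (32.9 to 41.9%), while the 7 intervals with at least 9 gave 50.7% (39.1 to 62.3%). Counting only wild-type-alone clusters with no mark, it was 59.1% with 0, 52.0% with 1, 50.1% with 2, 49.0% with 3 or 4, 56.8% of 37 with 5 to 8 and 26.7% of 15 with at least 9, so no order is shown at the higher counts. More RNA from a locus and more U2 bound per RNA cannot be told apart here, since libraries of unselected extract were not analysed here.

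**Figure D5:**
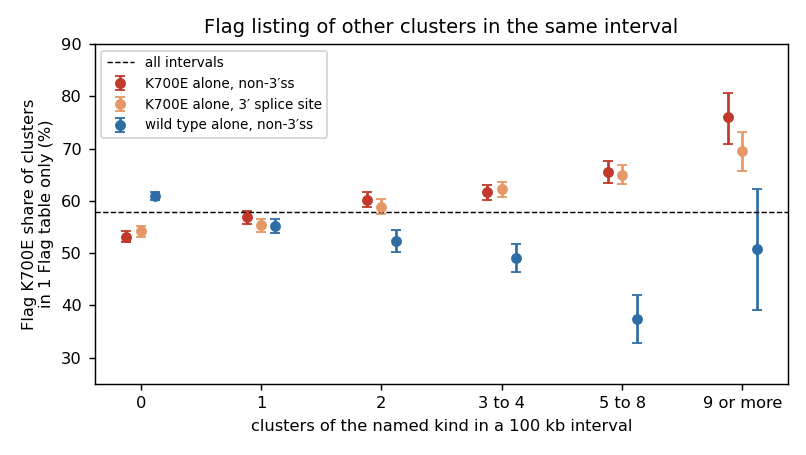
Percent of clusters in only 1 Flag table that were in Flag K700E (vertical axis, with 95% Wilson intervals) by the number of non-3′ss clusters of SF3A2 K700E alone, 3′ss clusters of SF3A2 K700E alone or non-3′ss clusters of SF3A2 wild type alone in the same 100 kb interval (horizontal axis). The share is 53.1% with 0 and 76.1% with at least 9 K700E-alone non-3′ss clusters, and 54.2% and 69.6% for the 3′ss clusters; the dashed line is 57.9%.

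Among chromosomes, the share of non-3′ss SF3A2 K700E clusters that were listed alone was highest on chromosome 21, at 32.1% (209 of 652, 28.6 to 35.7%), and next on chromosome 8, at 30.1% (602 of 2001, 28.1 to 32.1%). It was lowest on chromosome 18, at 20.9% (18.1 to 24.0%), and on chromosome 22, at 21.5% (19.1 to 24.2%). The share over all chromosomes was 25.2%. 3′ss clusters listed alone were 14.8% of the 3′ss clusters on chromosome 21 and 17.1% on chromosome 8, against 16.2% over all. On chromosome 18 they were 13.5%. With 5′ss clusters left out, the shares listed alone were 31.9% on chromosome 21, 30.6% on chromosome 8, 21.2% on chromosome 18 and 23.1% on chromosome 22. Chromosome Y had 5 non-3′ss clusters in the table and 0 listed alone.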

How the data were processed

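U2 IP-seq reads of K562 cells were processed with STAR 2.7.6a and cutadapt against hg19, per the submitters' processing notes. How clusters were found, replicates pooled, marks assigned and branch points predicted is not stated in the sources used here. Per the file headers, each of the 4 tables lists a cluster, its positions, a branch point and its rank; the deposited rank is a score of 1 to 3 and can be tied. Positions keep the values of the tables, and their base (0 or 1) is unknown. A row without a cluster identifier was left out of the SF3A2 K700E table.

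Clusters were compared by identifier with Python 3.11.15, pandas 2.3.3, numpy 2.4.6 and scipy 1.17.1, and plotted with matplotlib 3.10.9. Distances run between mean top-ranked branch points. No p-value was computed, since no group has replicate values. The functions were tested on simulated data. Named intervals are 10 with the most K700E-alone non-3′ss clusters, and of the 6 tied at 11 the first 4 by chromosome. Named single clusters are the first in the 5 densest intervals, the first of median span with 1 branch point on chromosomes 1 to 7, and the first with 3 branch points on chromosomes 1 to 3. Clusters, comparisons and rules were chosen with earlier results of these data known. No hg19 genome or annotation was used here, so no gene, sequence or gene list is reported. Orientation, Flag neighbour and near-end measures and the split by the 5′ss mark were added after seeing the data.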

Additional observations from a re-analysis of the deposited data

Results flagged for a closer look

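A signal outside the comparisons was the row of the SF3A2 K700E table without a cluster identifier, at 150761689 to 150761755 of chromosome 7, with a branch point at 150761743. It spans 66 nt and overlaps 0 clusters of the 4 tables, and whether it carried the 3′ss mark is not known.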

How the results depend on the processing

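The number of K700E-alone non-3′ss clusters was 10506 to 11463 when an overlapping or near cluster of another table counted as listing them. In clusters of 30 to 38 nt, 75.1% had 1 branch point, with a mean of 1.30, the distance to the nearer end averaged 11.4 nt in place of 11.9 nt, and orientation matched in 92.6%. Rank 1 alone gave 1.05 branch points per cluster. A 3′ss cluster was within 1 kb of 30.9% and within 100 kb of 95.9%, and a 3′ss cluster of all 4 tables was within 10 kb of 60.7%. Another K700E-alone non-3′ss cluster was within 1 kb of 10.8%, within 200 nt of 2.50% and within 10 kb of 43.5%. The nearer-end share near clusters of all 4 tables was 61.1% at 100 to 200 nt and turned to 32.1% at 40 to 100 nt. The densest interval held 17 at 100 kb and 49 at 1 Mb. At 1 kb, orientation matched in 90.8% and Flag neighbours were in Flag K700E in 66.1%. The share within 9 nt of the nearer end was 15.8% with a single branch point and 12.1% at exactly 34 nt, and limits of 8 and 10 nt gave 8.35% and 31.9%. With 5′ss clusters left out, 10628 clusters remain, 72.8% had 1 branch point, with a mean of 1.34 and a mean span of 34.9 nt, a 3′ss cluster was within 10 kb of 70.4%, another such cluster was within 1 kb of 9.72%, and the nearer-end share of 53.5% turned to 32.6%. This setting, the distance zones and those for orientation, Flag neighbours and the 9 nt limit were chosen after seeing the data. In all, 26 settings stayed within 1.5 times for counts or within the interval of the reported value. Another 23 moved outside these limits, and 2 reversed, both for the nearer-end share. The 26 include the numbers of K700E-alone non-3′ss clusters given above. The branch nucleotide and gene alternatives were not run. No paired analysis was possible because the tables pool the replicates.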
